A study of Mus musculus with 12 samples.

Results

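Mpo, Elane, Prtn3, Ctsg, Ms4a3, Fcnb, Gstm1 and Prss57 are transcripts that granulocyte progenitors make while they fill their first granules. They were taken by symbol from a table of read counts for 19910 mouse genes, where these 8 genes each had 1 row. All 8 had enough reads to be tested, among 10993 genes that did. Mpo and the serine proteases Elane, Prtn3, Ctsg and Prss57 are granule enzymes. Fcnb is a secreted lectin, Ms4a3 a membrane protein and Gstm1 a cytosolic enzyme, so the name primary granule protein does not hold for every one of the 8.

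RNA was sequenced from bone marrow cells, described by the submitters as murine leukemia cells, with 3 libraries in each of 4 groups. The marrow came from female C57BL/6J mice aged 6 to 10 weeks (strain given as C57Bl/6) and was transduced with retrovirus harvested from 293T17 packaging cells at 48 and 72 h. Each marrow received a pair of vectors: EMPTY + EMPTY (here empty), SETBP1 (D868N) + EMPTY (SETBP1), EMPTY + NRAS (G12D) (NRAS), or SETBP1 (D868N) + NRAS (G12D) (both). The SETBP1 protein binds DNA in the nucleus, NRAS is a GTPase at the top of the MAPK cascade, and D868N and G12D are mutations found in myeloid leukemia. All 4 groups share the transduction with a vector pair, and none was untransduced marrow. Separate mice or cultures are not stated for the replicates, so p-values measure the spread between these libraries, which may be technical.

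Neutrophils build their granules in order. Primary, or azurophil, granules form at the promyelocyte stage and carry myeloperoxidase and serine proteases that kill and digest microbes. Their genes are transcribed in granulocyte-monocyte progenitors and promyelocytes, under factors of the C/EBP, PU.1 (Spi1), RUNX and MYB families, and are shut down as cells mature. Specific and gelatinase granules follow later, with contents such as lactoferrin (Ltf). The proteases are made as inactive precursors, are trimmed to the active form by the dipeptidase cathepsin C (Ctsc) and are packed onto the proteoglycan serglycin (Srgn).

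Sequence upstream of 7 of the 8 genes was available from RefSeq for GRCm38.p6, and Prss57 had no entry. Windows of 250 bases before each start were searched on both strands for a PU.1 core (GAGGAA), a C/EBP pattern (TTNNGNAA), a RUNX core (TGTGGT) and a MYB pattern (AACNG). The PU.1 letters were found at Mpo, Elane, Prtn3 and Ctsg, which is 4 of 7 genes, against 23.3% of 32851 windows of the same length. The C/EBP letters were found at Ms4a3 and Fcnb and in 36.8% of all windows, the RUNX letters at Ctsg and in 14.0%, and the MYB letters at every one of the 7 except Ms4a3 and in 74.2%. The stretches shown are those of the peroxidase and the proteases, where the PU.1 letters lay, and of Fcnb, which had the lowest fold change of the set with both mutants against empty. Each runs 5′ to 3′ on the gene's strand and stops at the first base of an annotated exon, so it can be shorter than its window. Capitals mark the matches that lie fully within the stretch, and in Fcnb a C/EBP and a MYB match share 1 base. They lie at chr11:87793534-87793580 (+, Mpo), chr10:79886062-79886246 (+, Elane), chr10:79879417-79879613 (+, Prtn3), chr14:56102575-56102824 (-, Ctsg) and chr2:28084886-28085128 (-, Fcnb). The Prtn3 stretch lies between exons of a longer gene model in GENCODE. The last 203, 65 and 53 bases of the Mpo, Elane and Prtn3 windows are not shown for that reason. The MYB matches of Mpo and Elane lie in those bases, and a further MYB match of Prtn3 runs into them.
Mpo: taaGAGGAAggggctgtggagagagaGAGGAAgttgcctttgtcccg
Elane: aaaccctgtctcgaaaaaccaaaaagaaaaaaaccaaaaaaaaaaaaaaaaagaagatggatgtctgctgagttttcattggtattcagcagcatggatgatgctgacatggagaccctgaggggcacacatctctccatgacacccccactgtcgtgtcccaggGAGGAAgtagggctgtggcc
Prtn3: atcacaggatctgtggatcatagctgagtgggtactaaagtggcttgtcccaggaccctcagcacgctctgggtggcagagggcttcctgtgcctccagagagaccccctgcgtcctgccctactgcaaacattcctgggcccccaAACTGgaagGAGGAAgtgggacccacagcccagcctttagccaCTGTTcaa
Ctsg: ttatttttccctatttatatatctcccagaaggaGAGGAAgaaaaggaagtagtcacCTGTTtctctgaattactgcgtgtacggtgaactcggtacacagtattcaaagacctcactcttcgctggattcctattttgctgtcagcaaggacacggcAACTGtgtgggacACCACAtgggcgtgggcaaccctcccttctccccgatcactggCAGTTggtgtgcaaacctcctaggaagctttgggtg
Fcnb: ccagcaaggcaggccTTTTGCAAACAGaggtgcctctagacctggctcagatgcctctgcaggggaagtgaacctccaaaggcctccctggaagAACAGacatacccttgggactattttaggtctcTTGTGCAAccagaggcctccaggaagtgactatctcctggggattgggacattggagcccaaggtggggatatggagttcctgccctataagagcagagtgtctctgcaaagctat
A match of such short letters is a description of the window and not a binding site.

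The libraries held 7085894 to 8864919 counts. SETBP1 replicate 3 stood apart: its mean correlation of log2 levels with the other libraries of its group was 0.949, against 0.965 and 0.968 for those 2 and 0.987 to 0.990 for the libraries of the other groups. For the 8 genes, changes that involve the SETBP1 group are also given without it. For other genes many of the counts are. Single values of SETBP1 against empty and both against NRAS are where the call was gained or lost or the value moved by over 1.5 times. Their other single values, such as those of NRAS against empty, are from all 12 libraries only. Other SETBP1 means and ranges include it. That library also enters the spread estimated over all 12 libraries: without it, 836 genes instead of 210 passed for both against NRAS. For NRAS against empty, 5224 instead of 3576 did. Levels are normalised CPM (a gene's reads relative to the size of its library, adjusted with trimmed-mean-of-M-values factors). Differences are log2 fold changes with standard error (SE) from edgeR's quasi-likelihood test over all 12 libraries, with Benjamini-Hochberg adjusted p over all tested genes and a threshold of 0.05.

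The 8 transcripts together made up a large share of the RNA, and that share fell from group to group. They held 2.77, 2.66 and 2.95% of the counts in the empty libraries, 2.14, 2.17 and 1.84% with SETBP1, 1.17, 1.12 and 1.01% with NRAS, and 0.616, 0.644 and 0.576% with both. No 2 groups overlapped. The group means were 2.79 ± 0.149% (SD, n = 3), 2.05 ± 0.180%, 1.10 ± 0.0850% and 0.612 ± 0.0343%, and the SETBP1 mean without replicate 3 was 2.15%. Mpo alone held 1.51 to 1.69% of the counts with empty vectors, more than any other tested gene, and 0.266 to 0.320% with both. In bulk RNA, fewer cells that make these transcripts and less RNA per cell cannot be told apart.

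**Figure D1:**
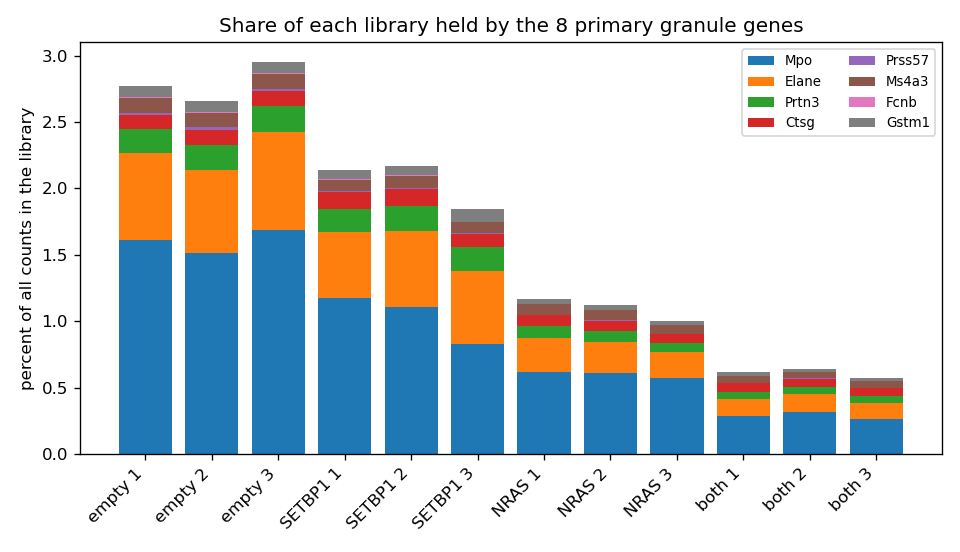
Percent of each library's counts held by the 8 genes. The empty libraries lie between 2.66 and 2.95% and those with both mutants between 0.576 and 0.644%, with no overlap between groups.

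Mpo, the peroxidase that makes hypochlorous acid in the phagosome, is at chr11:87793581-87804413 on the plus strand of GRCm38, with 14 exons in its principal GENCODE transcript. Its level was 15357, 14546 and 16137 CPM in the empty libraries, 11255, 10651 and 8697 with SETBP1, 6271, 6257 and 5837 with NRAS, and 3028, 3286 and 2799 with both. The 4 groups were fully separated, in that order. Against empty, Mpo was lower with SETBP1 at log2 -0.59 (SE 0.10, edgeR adjusted p 0.00285), 2.51-fold lower with NRAS (log2 -1.33, SE 0.10, adjusted p 2.58e-07) and 5.05-fold lower with both (log2 -2.34, SE 0.10, adjusted p 9.87e-10). Both against NRAS gave a 2.02-fold fall (log2 -1.01, SE 0.10, adjusted p 8.63e-05). The lowest SETBP1 value was that of replicate 3, and without it the SETBP1 change was -0.49 (adjusted p 1.58e-04).

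Elane, neutrophil elastase, lies at chr10:79886247-79888215 on the plus strand, with 5 exons. It stood at 6184, 6077 and 7046 CPM with empty vectors, 4761, 5419 and 5775 with SETBP1, 2622, 2355 and 2010 with NRAS, and 1333, 1354 and 1243 with both. No groups overlapped, but the highest SETBP1 library came close to the lowest empty one. The SETBP1 change of log2 -0.28 (SE 0.10, edgeR adjusted p 0.0795) did not pass the threshold, and without SETBP1 replicate 3 it was -0.34 and did (adjusted p 0.0175). With NRAS, Elane was 2.76-fold lower than with empty vectors (log2 -1.47, SE 0.10, adjusted p 1.97e-07). Adding SETBP1 to NRAS lowered it 1.78-fold further (log2 -0.83, SE 0.10, adjusted p 9.86e-04).

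Prtn3, proteinase 3, is the next gene of the same cluster, at chr10:79874476-79883174 on the plus strand. Its levels were 1703, 1799 and 1852 CPM with empty vectors, 1679, 1862 and 1857 with SETBP1, 934, 832 and 661 with NRAS, and 541, 557 and 540 with both. The empty and SETBP1 libraries overlapped entirely, while both groups with NRAS lay below them and apart from each other. The SETBP1 difference was log2 0.01 with a 95% interval of -0.20 to 0.23, and edgeR gave it an adjusted p of 0.948. NRAS lowered Prtn3 2.21-fold (log2 -1.14, SE 0.10, adjusted p 1.74e-06), and both against NRAS gave 1.48-fold (log2 -0.57, SE 0.10, adjusted p 0.00959). That last call was lost without NRAS replicate 2 (adjusted p 0.0503) and without replicate 1 or replicate 3 of both (0.0593 and 0.0501), at nearly the same size (log2 -0.55, -0.56 and -0.56).

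Ctsg, cathepsin G, a chymotrypsin-like protease at chr14:56099881-56102574 on the minus strand, changed least among the granule enzymes. It read 1034, 1100 and 1105 CPM with empty vectors, 1170, 1173 and 1031 with SETBP1, 851, 827 and 704 with NRAS, and 700, 649 and 640 with both. The empty and SETBP1 libraries overlapped, and the highest library with both mutants was just below the lowest NRAS library. The SETBP1 difference was log2 0.06 (95% interval -0.12 to 0.24, edgeR adjusted p 0.638). NRAS lowered Ctsg 1.36-fold (log2 -0.44, SE 0.08, adjusted p 0.00102). Between both and NRAS the difference was log2 -0.26 (95% interval -0.44 to -0.08), which did not pass at an adjusted p of 0.160. With SETBP1 replicate 3 taken out of the fit, the same size of difference passed (adjusted p 0.0169).

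Prss57, neutrophil serine protease 4, is a trypsin-like enzyme at chr10:79781474-79790961 on the minus strand. It was among the 2 steepest falls of the set. Its level was 151, 163 and 173 CPM with empty vectors, 92.1, 92.3 and 97.1 with SETBP1, 38.1, 29.0 and 31.8 with NRAS, and 9.09, 12.8 and 11.3 with both. The groups were fully separated, and the libraries with both mutants held 6.84% of the empty level as fitted. Each step passed: SETBP1 against empty at log2 -0.79 (SE 0.11, edgeR adjusted p 0.00175), NRAS against empty at -2.30 (SE 0.12, adjusted p 1.25e-08) and both against NRAS at -1.57 (SE 0.14, adjusted p 4.83e-05). Prss57 overlaps Fstl3 on the opposite strand over 1157 of its 2843 exonic bases (40.7%). Whether counting used strand is not given in the sources used here, so reads of the pair cannot be told apart over that stretch. Fstl3, a secreted activin inhibitor, stood at 29.4 CPM with empty vectors and changed by log2 -2.09 with NRAS and -3.00 with both, both past the threshold.

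Fcnb encodes ficolin B, a lectin of the complement system that binds sugars on microbes, at chr2:28076378-28084885 on the minus strand. It had 67.9, 52.3 and 69.0 CPM with empty vectors, 37.7, 32.4 and 52.3 with SETBP1, 14.8, 12.9 and 11.8 with NRAS, and 4.34, 4.99 and 3.23 with both. The highest SETBP1 library, replicate 3, nearly met the lowest empty library, and the other groups were well apart. The last group rests on 24 to 39 reads a library. Fcnb was lower in every step: log2 -0.63 with SETBP1 (SE 0.18, edgeR adjusted p 0.0325), -2.26 with NRAS (SE 0.19, adjusted p 1.24e-06) and -1.64 for both against NRAS (SE 0.24, adjusted p 0.00259). The SETBP1 call depended on single libraries. Without SETBP1 replicate 3 the change was -0.85 (adjusted p 6.16e-04), and the call was lost without SETBP1 replicate 2 (-0.48, adjusted p 0.0909), empty replicate 1 (-0.56, 0.122) or empty replicate 3 (-0.55, 0.134).

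Ms4a3, a protein of the membrane-spanning 4A family that marks granulocyte-monocyte progenitors, is at chr19:11629496-11640851 on the minus strand. Its levels were 1027, 1061 and 1071 CPM with empty vectors, 831, 889 and 849 with SETBP1, 801, 781 and 651 with NRAS, and 508, 459 and 528 with both. The groups did not overlap, though the SETBP1 and NRAS libraries were close: NRAS against SETBP1 gave log2 -0.20 (95% interval -0.38 to -0.02, edgeR adjusted p 0.0652, and 0.0418 without SETBP1 replicate 3). Against empty the changes were -0.30 with SETBP1 (SE 0.08, adjusted p 0.0293) and -0.50 with NRAS (SE 0.08, adjusted p 4.07e-04). Both against NRAS came to -0.58 (SE 0.08, adjusted p 0.00259). The SETBP1 call was lost when empty replicate 1, 2 or 3 was left out (adjusted p 0.0794, 0.0764 and 0.109).

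Gstm1, a mu-class glutathione transferase that couples glutathione to reactive compounds, is at chr3:108012255-108017973 on the minus strand. It stood at 786, 785 and 777 CPM with empty vectors, 663, 664 and 982 with SETBP1, 411, 368 and 340 with NRAS, and 305, 294 and 304 with both. SETBP1 replicate 3 was above every empty library and the other 2 SETBP1 libraries were below them. The SETBP1 difference was log2 -0.02 (95% interval -0.29 to 0.24, edgeR adjusted p 0.908) with that library and -0.24 (adjusted p 0.0225) without it. NRAS lowered Gstm1 2.10-fold (log2 -1.07, SE 0.13, adjusted p 2.39e-05). Both against NRAS gave -0.31 (95% interval -0.58 to -0.04), with an adjusted p of 0.330, and the 2 groups did not overlap. Without SETBP1 replicate 3 in the fit that adjusted p was 0.00299. Gstm1 has close paralogs beside it, and how reads that fit several genes were counted is not given in the sources used here.

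**Figure D2:**
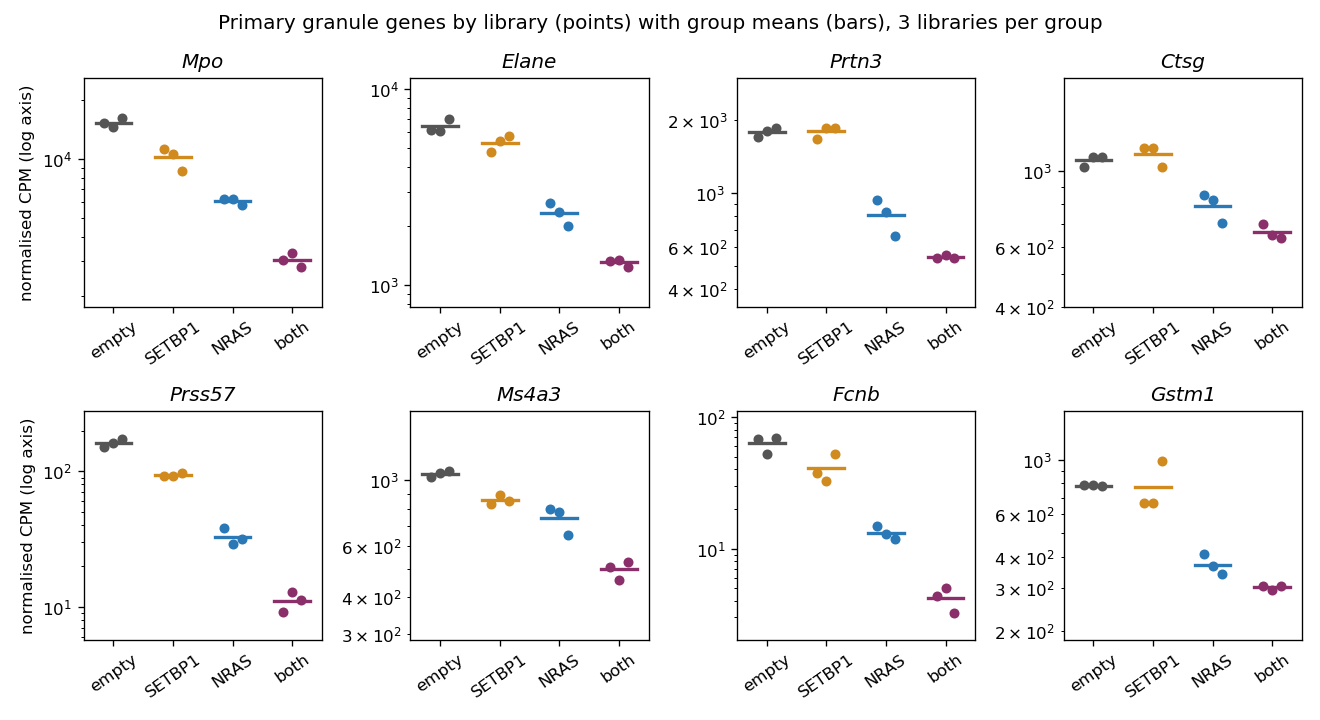
Normalised CPM of each of the 8 genes in the 12 libraries on a log axis, with 1 point per library and the group mean. Mpo, Elane, Fcnb, Ms4a3 and Prss57 step down from empty to SETBP1, NRAS and both, while Prtn3, Ctsg and Gstm1 overlap between empty and SETBP1.

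Set side by side, mutant NRAS alone lowered all 8 genes. The falls ran from log2 -0.44 for Ctsg to -2.30 for Prss57 with a median of -1.23, where the median over all tested genes was -0.01. Of all tested genes 15.5% were called lower and 17% higher. In each of the 8 the NRAS libraries lay below the empty ones, which held for 27.9% of all genes. Mutant SETBP1 alone lowered 4 of the 8, Mpo, Ms4a3, Fcnb and Prss57, with a median of -0.29 over the 8 against -0.01 over all genes. Of all genes 6.55% were called lower and 8.31% higher. In 5 of the 8, the 4 called and Elane, the SETBP1 libraries lay below the empty ones, as in 16.5% of all genes. Elane, Prtn3, Ctsg and Gstm1 did not pass. With SETBP1 replicate 3 left out, 6 of 8 passed, with Elane and Gstm1 added, and 15.3% of all genes did in either direction. The 8 changes were then log2 -0.49 for Mpo, -0.34 for Elane, -0.01 for Prtn3, 0.12 for Ctsg, -0.29 for Ms4a3, -0.85 for Fcnb, -0.24 for Gstm1 and -0.82 for Prss57. With only the 6 libraries of empty and SETBP1 in the fit, 1 passed (Prss57), as did 1.03% of all genes. Without empty replicate 1 or without empty replicate 3 it was 2 (Mpo and Prss57), with 4.44 and 3.5% of all genes.

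Adding mutant SETBP1 to mutant NRAS lowered 6 of the 8, all but Ctsg and Gstm1, in a comparison where 1.38% of all tested genes were called lower and 0.528% higher. Without SETBP1 replicate 3 in the fit all 8 passed, with 7.52% of all genes in either direction. Without NRAS replicate 2, or replicate 1 or 3 of both, 5 passed, since Prtn3 lost its call, with 0.914, 0.834 and 1.02% of all genes. The median of the 8 was log2 -0.71, against 0.00 over all genes. In each of the 8 the 3 libraries with both mutants lay below the 3 NRAS libraries, which held for 12.9% of all genes. This comparison shares no library with SETBP1 against empty, but it shares the NRAS libraries with NRAS against empty.

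**Figure D3:**
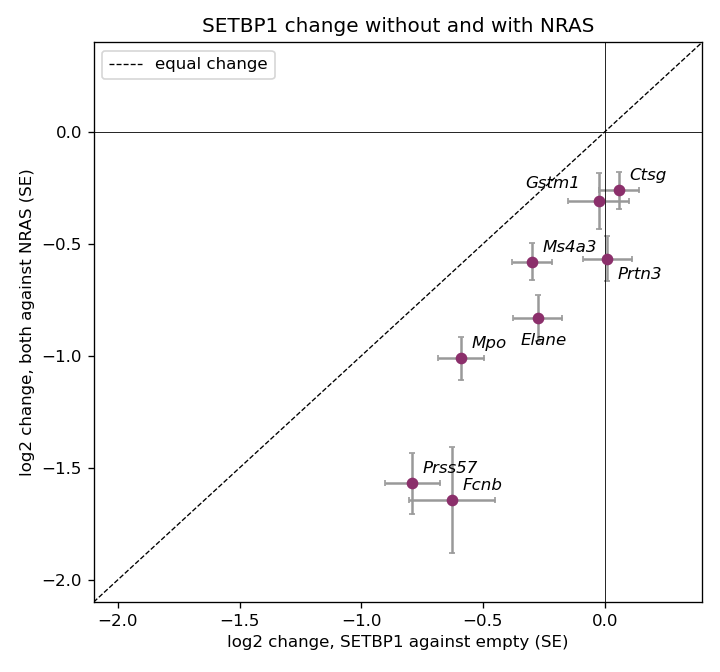
Log2 fold change of each gene with mutant SETBP1 on the empty background (SETBP1 against empty) and on the NRAS background (both against NRAS). The value on the NRAS background is the lower one for each gene, from -0.26 for Ctsg to -1.64 for Fcnb.

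Whether SETBP1 lowered these genes more with NRAS than without it was tested as the interaction, the difference between those 2 changes. None of the 8 passed with edgeR, where 0.0455% of all genes did, and adjusted p ran from 0.178 to 0.504. All 8 estimates were negative, from log2 -0.28 to -1.02 with a median of -0.49 against -0.01 over all genes. At an unadjusted p under 0.05, 7 of the 8 passed, all but Gstm1, and 12.9% of all genes did. DESeq2 called 3 of them (Elane, Prtn3 and Prss57) and 0.846% of all genes, and limma-voom called 0 and 0.0273%. Once SETBP1 replicate 3 was left out, edgeR called 3 (Mpo, Prtn3 and Prss57) and 0.99% of all genes. Without NRAS replicate 3 it called 1 (Prtn3) and 0.0448%.

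Cells with both mutants had the lowest levels of the 4 groups. Against empty, all 8 were lower, from log2 -0.70 (SE 0.08, edgeR adjusted p 1.48e-05) for Ctsg to -3.91 (SE 0.22, adjusted p 1.36e-08) for Fcnb, and 19.8% of all genes were called lower. Prss57 stood at -3.87, Prtn3 at -1.71, Gstm1 at -1.38 and Ms4a3 at -1.08. Against SETBP1 all 8 were lower too, from -0.76 (Ctsg) to -3.28 (Fcnb), where 21.5% of all genes were. NRAS against SETBP1 lowered 7, all but Ms4a3, where 20.1% of all genes were lower. Without SETBP1 replicate 3 all 8 passed in both of these comparisons, from -0.79 (Ms4a3) to -3.06 (Fcnb) for both against SETBP1 and from -0.21 (Ms4a3) to -1.48 (Prss57) for NRAS against SETBP1. Of all genes 46.5 and 43% then passed in either direction. The 6 genes Mpo, Elane, Prtn3, Ms4a3, Fcnb and Prss57 were lower with both than in each of the other 3 groups, as were 1.16% of all tested genes.

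**Figure D4:**
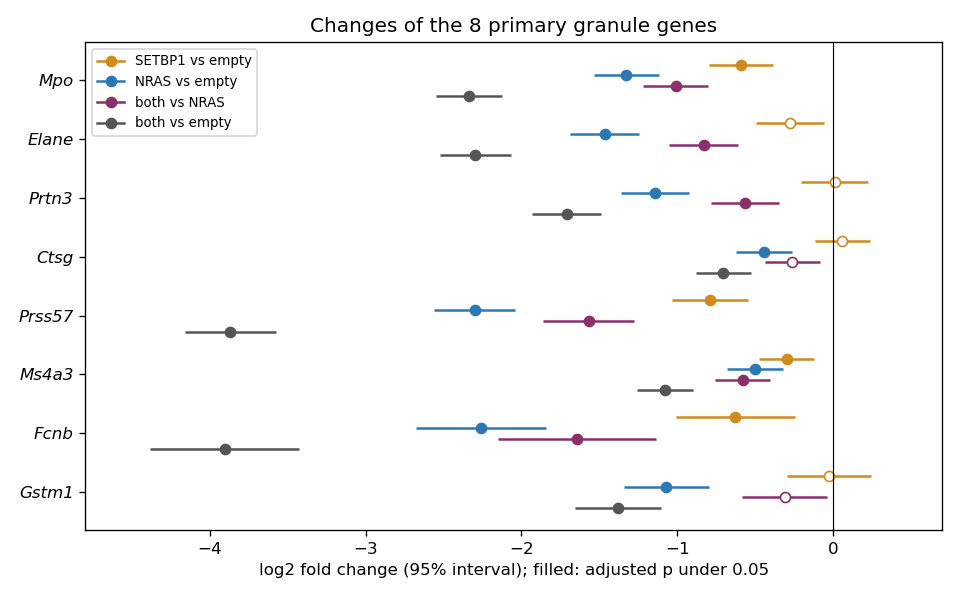
Log2 fold change of the 8 genes with 95% intervals in 4 comparisons. Fcnb and Prss57 have the lowest values and Ctsg the highest with both mutants against empty (-3.91, -3.87 and -0.70).

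Because the 8 genes fell by unequal amounts, the make-up of the set changed. Per 100 reads of Mpo there were 7.05 ± 0.450 reads of Ctsg (SD, n = 3) with empty vectors, 11.1 ± 0.731 with SETBP1, 12.9 ± 0.791 with NRAS and 21.9 ± 1.86 with both. Cathepsin G therefore held a larger place beside the peroxidase wherever a mutant was present. Among the proteases, Prtn3 per 100 reads of Elane went from 27.8 with empty vectors to 33.9, 34.6 and 41.7, and Prss57 per 100 reads of Elane from 2.53 to 1.77, 1.42 and 0.846. Elane per 100 reads of Mpo showed no such order, at 41.9, 53.2, 38.0 and 43.2. Without SETBP1 replicate 3 the SETBP1 values of these 4 ratios were 10.7, 34.8, 1.82 and 46.6. Prtn3 per 100 reads of Elane was then no lower with SETBP1 than with NRAS.

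Levels of different genes can be compared only per length of transcript. Per kilobase, Elane was highest with empty vectors at 6540 ± 540 CPM per kb (SD, n = 3), next to Mpo at 5581 ± 289. These 2 were followed by Prtn3 (1742), Ctsg (1077), Ms4a3 (1042), Gstm1 (607), Prss57 (57.2) and Fcnb (53.9). Ctsg and Ms4a3 differed by less than the SD of Ctsg, and Prss57 and Fcnb by less than that of Fcnb. With both mutants Elane (1331) and Mpo (1105) still led, but Ctsg (662 ± 32.3) stood above Prtn3 (533 ± 9.02), which reverses their order.

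Genes for packing and maturation of the proteases moved in both directions. Of 18 such genes, all tested, NRAS lowered 8 and raised 2, SETBP1 lowered 3 and raised 2, and both against NRAS changed none with edgeR, where 6 had an unadjusted p under 0.05, DESeq2 called 2 and limma-voom 0. In the fit without SETBP1 replicate 3, both against NRAS lowered 3 and raised 1, and SETBP1 raised none. The list's medians were -0.22, -0.12 and -0.07, and those over all genes were -0.01, -0.01 and 0.00. Ctsc, the activating dipeptidase, stood at 1105 ± 122 CPM with empty vectors and 1047 ± 64.9 with both (log2 -0.08, SE 0.15, edgeR adjusted p 0.710). Srgn, the packing proteoglycan, stood at 1300 ± 52.5 and 1253 ± 119 (log2 -0.05, adjusted p 0.626), and was lower with SETBP1 alone (log2 -0.36, adjusted p 0.0124). Rab27a, a small GTPase of granule release, fell with NRAS (log2 -0.98) and stood at 104 CPM with empty vectors and 34.0 with both (log2 -1.61, SE 0.16, adjusted p 2.71e-06). Cst7 and Cd63, a cathepsin inhibitor and a granule membrane protein, fell slightly with NRAS at -0.24 and -0.21. Furin, a proprotein convertase, rose with NRAS at log2 1.16 (SE 0.13, adjusted p 1.19e-05).

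Inhibitors of the granule proteases also rose and fell. Of 12 listed, 10 were tested, and NRAS raised 3 and lowered 3, SETBP1 raised 2 and lowered 1, and both against NRAS lowered 3. The medians were 0.17, 0.19 and -0.52. After SETBP1 replicate 3 was dropped, both against NRAS also raised 3, and NRAS raised 5. Slpi, secretory leukocyte protease inhibitor, which blocks elastase and cathepsin G, went from 192 ± 9.13 CPM with empty vectors to 398 ± 124 with SETBP1, 2447 ± 216 with NRAS and 3820 ± 445 with both. Its changes against empty were log2 1.05 (SE 0.17, edgeR adjusted p 0.00279), 3.67 (SE 0.18, adjusted p 6.14e-09) and 4.31 (SE 0.19, adjusted p 1.08e-09), and both against NRAS (0.64) did not pass at an adjusted p of 0.0659 and did without SETBP1 replicate 3 (4.66e-05). Serpinb1a, the main inhibitor of these proteases inside the cell, fell with the enzymes from 571 ± 19.5 to 411 ± 39.5, 347 ± 31.0 and 237 ± 8.97 CPM, with each of the 3 steps past the threshold. Serpina3g and Wfdc21 fell with NRAS (log2 -1.26 and -1.62) and again with both against NRAS (-1.16 and -0.88).

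Transcription factors of the promyelocyte stage fell more often than they rose with NRAS, 7 against 4 of 18, with a list median of -0.19. SETBP1 lowered 4 and raised 4, and both against NRAS lowered 2 and raised 2, with medians of 0.09 and -0.03. With SETBP1 replicate 3 left out, both against NRAS lowered 6 and raised 4. Cebpa, needed for the step from common to granulocyte-monocyte progenitors, went from 102 ± 10.4 CPM with empty vectors to 65.5 ± 7.67 with NRAS (log2 -0.63, SE 0.11, edgeR adjusted p 5.33e-04) and 48.1 ± 3.41 with both, a step that did not pass (adjusted p 0.0626, and 0.00873 without SETBP1 replicate 3). Gfi1, a repressor that promotes the neutrophil fate, fell by 0.94 on the log2 scale with NRAS and by 0.44 with SETBP1. Runx1 fell by 0.78 and Myb by 0.70 with NRAS. Spi1, which encodes PU.1, was 448 ± 18 CPM with empty vectors and 397 ± 22.3 with NRAS (log2 -0.17, adjusted p 0.170).

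Cebpe, which switches on the genes of specific granules, was lower with both than with NRAS (log2 -0.96, SE 0.20, edgeR adjusted p 0.0243), and Ets1 was lower in that step as well (-1.52). The factors that rose in it were Hoxa9, at log2 1.30 (SE 0.13, adjusted p 1.47e-04), and Meis1, at 0.99 (SE 0.18, adjusted p 0.0101), which maintain immature progenitors. Irf8, a factor of the monocyte fate, rose with SETBP1 (log2 0.81, and 0.59 without SETBP1 replicate 3) and fell with NRAS (-0.69).

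Other transcripts of early neutrophil development, 24 in all, were lowered by NRAS in 11 cases and raised in 4, with a median of -0.21. Both against NRAS lowered 6 and raised none, with a median of -0.33, and SETBP1 lowered 3 and raised 3, with a median of -0.14. Once SETBP1 replicate 3 was left out, both against NRAS lowered 14 and raised 1, and SETBP1 lowered 8 and raised 5. Nkg7, a granule membrane protein of cytotoxic and myeloid cells, fell in each of the 3 steps, from 395 ± 23.5 CPM with empty vectors to 248 ± 29.0 with SETBP1, 108 ± 1.01 with NRAS and 48.4 ± 2.70 with both. Lysozyme (Lyz2) went the other way with SETBP1, at log2 0.86 (SE 0.21, edgeR adjusted p 0.0198, and 0.46 without SETBP1 replicate 3), and fell with NRAS (-1.78). Clec5a, a myeloid lectin receptor, rose with NRAS at 2.08.

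Lysosomal enzymes that primary granules also carry, 19 in all, were lowered by NRAS in 9 cases and raised in 1, with a median of -0.34. SETBP1 raised 5 and lowered 2 (median 0.16), and both against NRAS raised 1 and lowered 1 (median 0.18). In the fit without SETBP1 replicate 3, both against NRAS raised 6 and lowered 2, and NRAS lowered 15. Ctsd, cathepsin D, rose with SETBP1 (log2 0.86, and 0.52 without SETBP1 replicate 3) and with NRAS (0.64), while the sulfatase Arsb fell in all 3 steps (-0.98, -1.35 and -0.84). The summed level of this list reached 14358 CPM in 1 SETBP1 library against 8835 in the lowest, and the range with empty vectors was 6704 to 7411.

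The list for the later specific and gelatinase granules held 22 genes. Among them are genes of other kinds, such as the receptor gene Cxcr2 and the calcium-binding protein genes S100a8 and S100a9. More of its genes fell than in the lists above: 14 with SETBP1, 12 with NRAS and 13 with both against NRAS, where 0, 3 and 0 rose. The medians were -0.81, -1.04 and -1.56. Without SETBP1 replicate 3 in the fit the numbers lower were 17, 16 and 15 and those higher 0, 3 and 1, the last being Mmp8, a neutrophil collagenase (log2 0.70, edgeR adjusted p 0.00414), named after its value was seen. Ltf, lactoferrin, went from 1105 ± 68.7 CPM with empty vectors to 504 ± 125 with SETBP1, 270 ± 54.6 with NRAS and 57.0 ± 4.50 with both (log2 -4.28 for both against empty, SE 0.19, edgeR adjusted p 1.09e-09). Ngp, neutrophilic granule protein, went from 4252 ± 233 to 2162 ± 763, 1103 ± 223 and 258 ± 22.7 CPM. Retnlg, a resistin-like protein, fell with SETBP1 (-2.40) and with both against NRAS (-2.71), and its difference of 0.02 with NRAS did not pass. Mmp9, the gelatinase itself, rose with NRAS at 0.96.

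**Figure D5:**
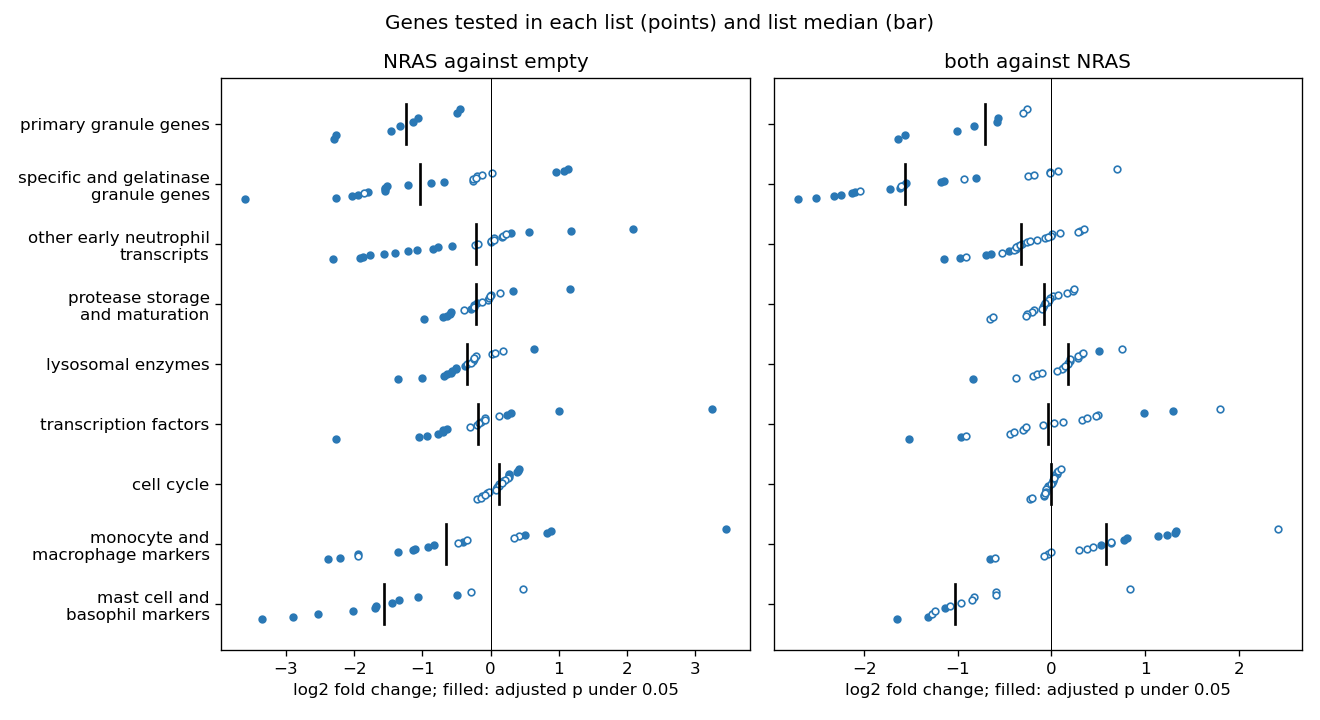
Log2 fold change of the tested genes of several lists, beside the 8 granule and progenitor genes, for NRAS against empty and both against NRAS. Filled points passed the threshold. In these comparisons, genes of the specific and gelatinase granule list were lower past the threshold in 12 and 13 of 22 cases. Packing and maturation genes were lower in 8 and 0 of 18.

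Close paralogs of the members were counted as a list. It shares genes with the mast cell and basophil markers below, among them Ms4a2, Mcpt8, Prss34 and Cma1, so these enter both counts. Of 30 paralogs, 17 were tested, and NRAS lowered 10 and raised 1, both against NRAS lowered 3, and SETBP1 raised 5 and lowered 3. After SETBP1 replicate 3 was dropped, both against NRAS lowered 6 and raised 2, and NRAS raised 3. In the Ms4a family, Ms4a2 fell with NRAS (log2 -2.54) and Ms4a6d did not pass (0.44). The serine protease Mcpt8 fell with NRAS (-1.67). Among peroxidases, Lpo had at most 3 reads in a library, and Epx, eosinophil peroxidase, ranged widely within groups, at 103 ± 45 CPM with empty vectors and 70.7 ± 37.8 with NRAS. In the mu class of glutathione transferases, Gstm4 stood at 53.3 ± 1.45 CPM with empty vectors and fell with NRAS (log2 -0.87), as did Gstm2 (-1.57), while Gstm5 did not pass (-0.27). Of 14 tested genes of other transferase classes and glutathione synthesis, NRAS lowered 9 and raised 1. That 1 was Slc7a11, the cystine importer, at log2 3.62 (SE 0.11, edgeR adjusted p 4.62e-11).

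Neighbours along the chromosome were taken as the 2 nearest genes of the table on each side, 27 genes of which 18 were tested. With both mutants against empty 8 were lower, 4 higher and 6 did not pass, with a median of -0.12. Of all genes 40.6% passed in either direction and 19.8% were called lower, with a median of -0.01. In the Elane and Prtn3 cluster, Cfd had at most 3 reads in a library, Ptbp1 was slightly higher (log2 0.37, edgeR adjusted p 0.0118) and Med16 did not pass (-0.16). Beside Ctsg, the basophil protease Mcpt8 fell (log2 -2.81) and Gzme had at most 1 read. Beside Ms4a3, Ms4a2 fell (-3.78) and Ms4a6d rose (1.11). Beside Fcnb, Col5a1 (2.65) and Olfm1 (2.34) rose and Rxra did not pass (0.19). Beside Prss57, Fstl3 (-3.00) and Palm (-1.61, edgeR adjusted p 4.88e-08) fell and Rnf126 did not pass (0.46).

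Markers of other myeloid cells moved as well. Of 14 mast cell and basophil markers 12 were tested, and NRAS lowered 10, SETBP1 lowered 6, and both against NRAS lowered 3, with none higher in any of these. With SETBP1 replicate 3 left out, both against NRAS lowered 10, SETBP1 lowered 8, and NRAS raised 1. Their summed level ran from 3444 to 3504 CPM with empty vectors, 1858 to 2670 with SETBP1, 827 to 1391 with NRAS and 465 to 674 with both, so it followed the same order as the granule genes. Prss34, a basophil protease, made up much of it, at 1758 ± 38.3 CPM with empty vectors and 94.5 ± 30.8 with both, and Mcpt4 and Tpsab1 were near 0 throughout. The part of these cells in the changes of the 8 genes was not tested.

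Of 18 monocyte and macrophage markers, all tested, SETBP1 raised 10 and lowered 1, NRAS raised 4 and lowered 9, and both against NRAS raised 7 and lowered 1. Once SETBP1 replicate 3 was left out, both against NRAS raised 11. Summed levels were 2671 to 2886 CPM with empty vectors, 3016 to 4463 with SETBP1, 2320 to 2502 with NRAS and 2998 to 3092 with both. Thus the summed level was higher with both than with NRAS while the granule genes were lower. The complement gene C1qa, for example, rose in that step at log2 1.34, and Csf1r, the receptor for macrophage colony-stimulating factor, did not pass (0.38, and adjusted p 1.81e-04 without SETBP1 replicate 3). The part of these cells was not tested.

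Stem and early progenitor markers, 12 in all, summed to 759 to 902 CPM with empty vectors, 1030 to 1284 with SETBP1, 624 to 794 with NRAS and 804 to 839 with both. Cell cycle genes summed to 5551 to 5648, 5026 to 5259, 6187 to 6220 and 5955 to 6059 CPM, and NRAS raised 6 of 21 of them.

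Platelet lineage markers fell with NRAS: of 10 megakaryocyte markers NRAS lowered 7 and raised none, SETBP1 lowered 1 and raised 2, and both against NRAS lowered 1. With SETBP1 replicate 3 left out, both against NRAS lowered 3 and raised 2, and SETBP1 lowered 2. With both mutants against empty 8 were lower and 1 higher, with a median of log2 -2.22. The summed level ran from 281 to 337 CPM with empty vectors, 332 to 677 with SETBP1, 174 to 240 with NRAS and 269 to 292 with both, so it did not follow the order of the granule genes. Of 9 eosinophil markers 5 were tested, and SETBP1, NRAS and both against NRAS each lowered 1, or 1, 3 and 3 without SETBP1 replicate 3. They summed to 201 to 349, 15.1 to 249, 137 to 273 and 28.3 to 115 CPM in the 4 groups. Of 11 dendritic cell markers 5 were tested, and SETBP1 raised 3 and NRAS raised 2 and lowered 1, or 2 without SETBP1 replicate 3. Their sums were 498 to 624, 897 to 1454, 594 to 623 and 611 to 698 CPM.

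Of 13 erythroid markers 4 were tested, and both against empty lowered 3 and raised 1. They summed to 96.6 to 104 CPM with empty vectors and 85.7 to 100.2 with both, most of it Car2, a carbonic anhydrase (64.2 and 85.8), and Gata1, a factor that mast cells and megakaryocytes also use (24.4 and 4.67). The globins Hba-a1, Hba-a2, Hbb-bs and Hbb-bt and the membrane protein gene Slc4a1 were at 0 in all 12 libraries. B cell markers summed to 22.7 to 23.9 CPM with empty vectors and 14.9 to 18.9 with both, nearly all of it Cd79b (19.2 and 7.57) and Blnk (2.61 and 8.09), and Pax5 was at 0. The T and NK cell list summed to 369 to 412 CPM with empty vectors and 45.8 to 51.1 with both, nearly all of it Nkg7 (395 and 48.4), which is also on the list of early neutrophil transcripts, and Cd3e, Cd8a and Ncr1 were at 0. Stroma and endothelium markers summed to 102 to 118, 74.6 to 82.4, 182 to 288 and 185 to 204 CPM in the 4 groups, mostly Pecam1, an adhesion molecule that myeloid cells also carry. Col3a1 and Cxcl12 were at 0. The part of these cells was not tested.

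The 8 genes varied together across the 12 libraries. Pearson's r of log2 levels over the 28 pairs ran from 0.869 (Ms4a3 and Gstm1) to 0.990 with a median of 0.957. Over 9065 genes outside the set with enough reads, the patterns most like the mean of the 8 were those of Mgst2, a microsomal glutathione transferase (r = 0.993), Tmed3, a carrier protein of the secretory pathway (0.992), Ccdc125 (0.990), the antimicrobial peptide gene Camp (0.990) and Lta4h, a hydrolase that makes leukotriene B4 (0.990). Mgst2 went from 95.9 ± 3.29 CPM with empty vectors to 85.3 ± 11.9 with SETBP1, 32.6 ± 1.92 with NRAS and 16.6 ± 1.76 with both. The points share 4 groups and 12 libraries, so these values describe likeness only.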

How the data were processed

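The authors deposited 1 table of whole-number read counts per gene for 12 libraries. Per the labels, RNA was extracted with RNeasy micro columns and libraries used a SMART-Seq ultra-low-input chemistry. STAR, DESeq2 and mm10 are named in the submitters' processing notes, without roles or versions, and the counting tool and strand rule are not given in the sources used here. In R 4.3.3, edgeR 4.0.16 gave levels and log2 fold changes from the counts (trimmed mean of M-values scaling, filterByExpr at a minimum count of 10 and total of 15, quasi-likelihood F test, two-sided, 12 libraries as 4 group means, Benjamini-Hochberg adjustment over 10993 genes). Per-kilobase levels used the principal GENCODE M21 transcript. The steps were tested on simulated data. Alternatives used DESeq2 1.42.0, limma-voom (limma 3.58.1), other scalings and filters, and each library left out; the list counts under them, the read ratios without SETBP1 replicate 3 and the Camp interaction under them were added after seeing the data. The members and lists were chosen with earlier results of these data known. Named genes of a list were those with the largest changes past the threshold whose highest group averaged 50 counts or more, plus genes with a stated role. Same-numbered libraries did not deviate together (correlations -0.13 to 0.12, 1 of 18 over 0.1). What a replicate number marks is not stated, and with 3 libraries per group this check cannot exclude a small shared effect.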

Additional observations from a re-analysis of the deposited data

Results flagged for a closer look

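Camp, the gene of the cathelicidin antimicrobial peptide and one of the 10 genes whose pattern was most like that of the 8, responded differently to mutant SETBP1 with and without mutant NRAS. The interaction was log2 -1.55 (SE 0.24, edgeR adjusted p 0.0424), and 5 of 10993 genes passed this test. SETBP1 changed Camp by -0.58 on the empty background and by -2.13 on the NRAS background. Of 23 alternatives, applied to this gene after seeing the data, 12 kept the call and 11 did not, with estimates of -1.68 to -1.32 and adjusted p from 2.34e-06 (DESeq2) to 0.194. The call was lost with limma-voom (adjusted p 0.164), library size scaling (0.0673) and upper-quartile scaling (0.0631), at a threshold of 0.01, and without NRAS replicate 2, any 1 of the empty libraries or any 1 of the libraries with both mutants (0.0791 to 0.194).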

How the results depend on the processing

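For NRAS against empty, both against SETBP1 and both against empty, all 8 genes were lower past the threshold in each of 24 alternatives. Of all genes 20.8 to 49.1, 27.7 to 46.5 and 28.4 to 56.5% passed there in either direction. NRAS against SETBP1 gave 7 to 8, with 26.2 to 46% of all genes. For both against NRAS the number was 6, with 6 to 8 under other settings and 5 to 8 when 1 library was left out. The 8 under other settings came with only the groups compared, where 8.37% of all genes passed. For SETBP1 against empty it was 4, with 2 at an adjusted p of 0.01, 1 with only the groups compared, and 2 to 6 when 1 library was left out. Of all genes 3.45% passed at 0.01 and 1.03% with only the groups compared. For the interaction it was 0, with 3 for DESeq2 (0.846% of all genes) and 0 to 3 when 1 library was left out. Of 1336 log2 fold changes under alternatives, 1291 kept direction and side of the threshold, 15 lost the call, 23 gained it and 7 changed sign. The sign changes were all for SETBP1 against empty, near 0. Prtn3 turned negative, at -0.034 with library size scaling and -0.00052 with upper-quartile scaling. It was -0.0137, -0.00445 and -0.0117 without empty replicate 1, SETBP1 replicate 2 and SETBP1 replicate 3. Gstm1 turned positive, at 0.0787 and 0.0809 without SETBP1 replicate 1 and replicate 2. With 1 library left out, the full ranges were -0.0137 to 0.0645 for Prtn3 and -0.238 to 0.0809 for Gstm1. Of 2736 counts of list genes under alternatives, 373 moved by over 1.5 times. The causes were not tested.

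With the 20 most abundant other genes left out of the total, the share of counts held by the 8 genes was 3.02% with empty vectors, 2.26% with SETBP1, 1.22% with NRAS and 0.683% with both, since the total is smaller by construction. Library size scaling moved the median of all genes by -0.093 for NRAS against empty and -0.12 for both against empty.

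With the replicate number as a block, 3 passed for SETBP1 against empty (Ms4a3 lost), 6 for both against NRAS and 0 for the interaction. Of all genes 10.7, 1.49 and 0.0546% passed in these comparisons. Same-numbered libraries did not deviate together, and whether the numbers mark pairs is not stated. Depth limits Fcnb most, with 24 to 39 reads in the libraries with both mutants.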
